A study of Homo sapiens with 16 samples.

Results

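The genes studied here encode the proteins of the mitochondrial ribosome. They were taken from a deposited RNA sequencing table of 18332 genes by symbol: every protein-coding gene whose symbol starts with MRPL or MRPS and a number. The rule gave 76 genes, 48 named MRPL and 28 named MRPS, on 21 chromosomes. By background knowledge of the ribosome's structure, 25 of them belong to the small subunit and 50 to the large subunit. The large subunit count includes *MRPS18A* and *MRPS30*, whose names say otherwise. *MRPS36* is the remaining gene, and its product is now known as a part of the 2-oxoglutarate dehydrogenase complex rather than of the ribosome. Another 3 symbols that start the same way belong to noncoding neighbors and are described apart. *MRPL45* and *MRPS21* are in the annotation used here but could not be looked up by symbol in the table.

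Mitochondria have a ribosome of their own, which translates the few mRNAs of the mitochondrial genome into core subunits of the respiratory chain and ATP synthase. Its 2 rRNAs come from mitochondrial DNA, while its proteins are encoded in the nucleus, made in the cytosol and imported. Of the genes here, 45 have a bacterial counterpart and 30 were gained in the mitochondrial lineage, many of them in places where the mitochondrial rRNA has become shorter.

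The cells were MDA-MB-231 and MDA-MB-468, established human breast cancer lines that the labels call negative for the estrogen receptor. For the comparison of low with high glucose, each line was kept for 48 hours in 5 mM glucose (low glucose) or in 25 mM glucose (high glucose), the latter as a model of hyperglycemia in culture, with 4 replicates in each of the 4 groups and 16 samples in all. The labels name no engineered change and no agent other than glucose. The study's methods give DMEM as the growth medium of MDA-MB-231 and RPMI as that of MDA-MB-468, so that line and growth medium cannot be told apart. The glucose media had no serum. The study's reagents include low-glucose and high-glucose DMEM, but the base used for each line is not given in the sources used here. Per the study's methods, cells were first conditioned in low-glucose medium. The labels do not say whether replicates were grown separately, and p-values therefore measure the spread between these samples, which may be technical. Per library, 14094597 to 24425916 reads were recovered from the deposited values, which are reads divided by a size factor and are called normalized reads below. Of the epithelial markers *CDH1*, *EPCAM*, *KRT5*, *KRT14*, *KRT18* and *EGFR*, all 6 were higher in MDA-MB-468 than in MDA-MB-231 in low glucose, and the mesenchymal markers *VIM*, *ZEB1* and *FN1* (3 of 3) were lower (all past the threshold of 0.05 on the limma adjusted p). The leukocyte gene *PTPRC* averaged between 3.12 and 12.5 normalized reads over the groups. It is 1 of 3 listed markers of other cell types, with *PECAM1* and *COL1A1*, of which 2 were found. In MDA-MB-468, 1 of the 2 was called higher in high glucose (log2 fold change 0.28) and 1 lower (-1.36). *ESR1*, the estrogen receptor gene, averaged 1.31 in low-glucose MDA-MB-231 and 57.9 in low-glucose MDA-MB-468. Because RNA was pooled over a flask, a smaller share of cells holding a transcript and less of that transcript per cell cannot be told apart.

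Most genes of the mitochondrial ribosome were higher in MDA-MB-468 cells in high glucose, by small amounts. Of 76 genes, 46 rose and 5 fell, and 25 did not pass the threshold of 0.05 on the adjusted p (limma on log2(normalized reads + 1), two-sided, Benjamini-Hochberg adjustment over all 15757 genes tested). Among all genes tested, 47.6% were called in this comparison, 24.9% higher and 22.7% lower. Among the 4339 genes within the 5 to 95% ranges of these 76 genes in transcript length (609 to 4469 bases) and in mean level (209.6 to 1717 normalized reads), 54.5% were called, 33.8% higher and 20.7% lower. The share of mitochondrial ribosomal protein genes that rose was 60.5% and the share that fell 6.58%. The median log2 fold change over the 76 genes was 0.19, and over all genes tested it was 0.00. With each sample corrected for transcript length, 3689 of all 15079 genes tested rose and 3646 fell. Of the 76 genes, 35 rose under this correction and 10 fell, with a median of 0.10. The 4 high-glucose samples all lay above the 4 low-glucose samples for 44 genes and all below them for 7, and such groups without overlap made up 42.5% of all genes tested. Of the genes that rose, 8 did so by at least 0.5 on the log2 scale, 22 by at least 0.3 and 24 by less than 0.3.

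**Figure D1:**
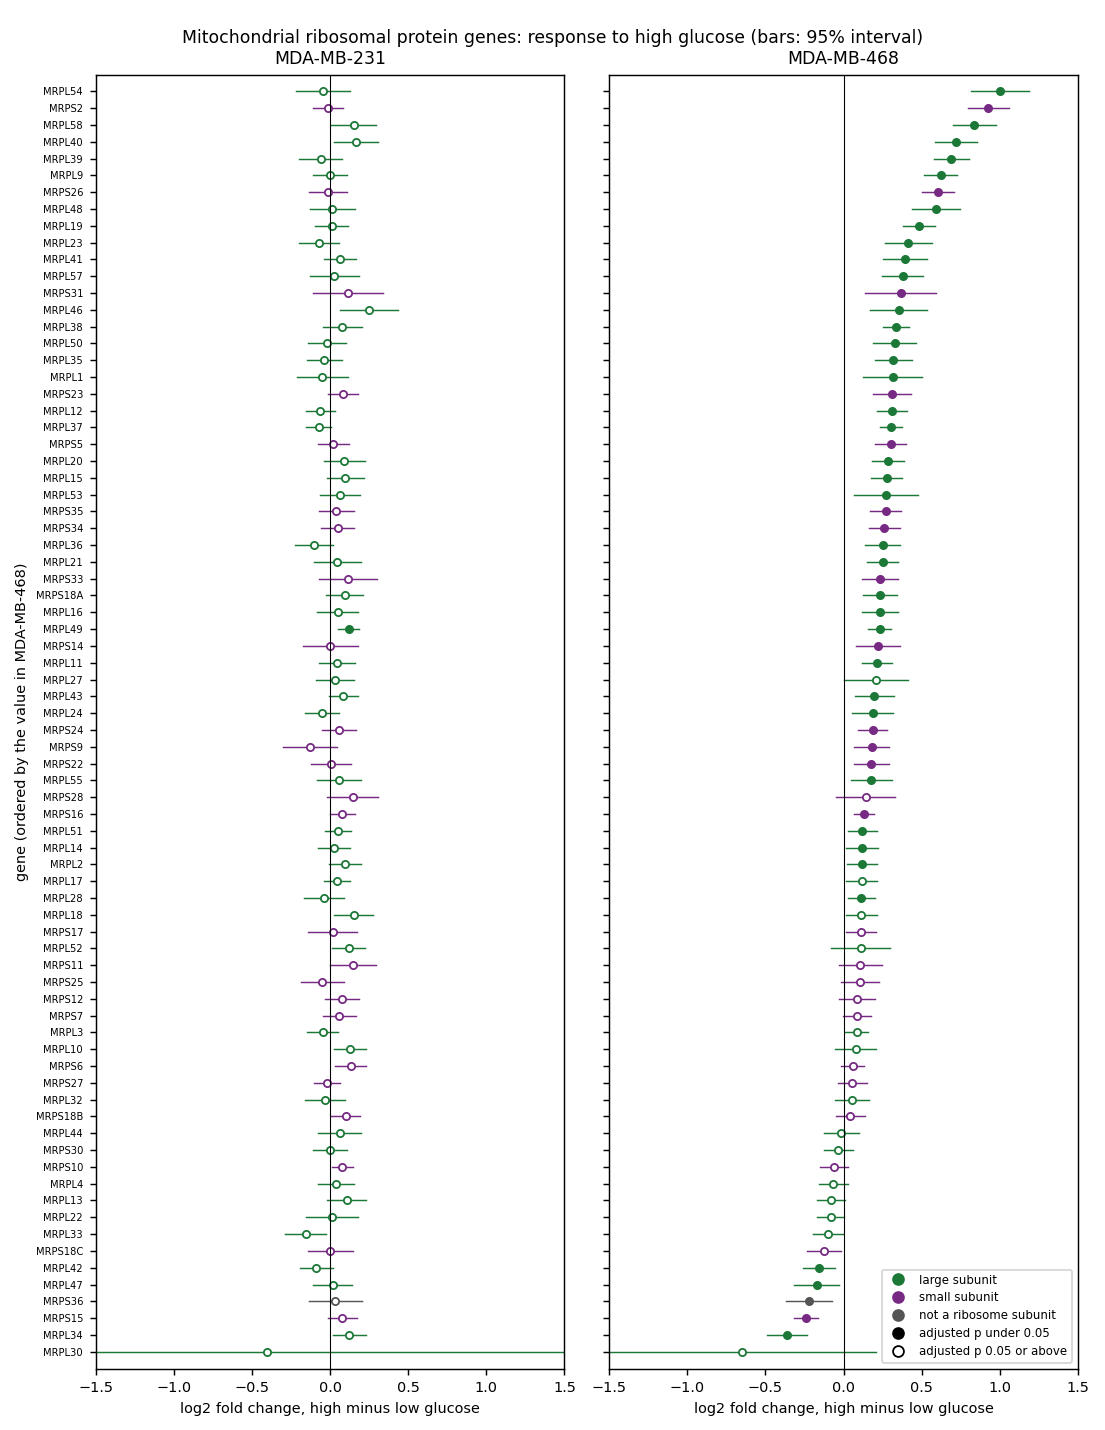
Log2 fold change of each of the 76 genes in high against low glucose (horizontal axis) in MDA-MB-231 (left) and MDA-MB-468 (right), with the 95% interval as a bar, color for the subunit and filled points for an adjusted p under 0.05. In MDA-MB-468, 46 filled points lie right of 0 and 5 left of it, while MDA-MB-231 has 1 filled point, and the interval of *MRPL30* runs past the axis in both panels.

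The largest rise was that of *MRPL54*, a large subunit protein gained in mitochondria (chr19:3762680-3768573 on GRCh37). Its normalized reads in MDA-MB-468 were 115, 127, 112 and 120.4 in low glucose and 239, 213, 269 and 237 in high glucose. The groups did not overlap, and the mean went from 119 ± 6.58 to 239 ± 22.9 (SD, n = 4), a log2 change of 1.003 (limma adjusted p = 1.17e-07, SE 0.089). In MDA-MB-231 it read 262, 312, 299 and 267 in low glucose and 309, 256, 253 and 288 in high glucose. These 2 groups overlapped, and the log2 fold change of -0.05 did not pass the test (95% interval -0.22 to 0.12).

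*MRPS2*, a small subunit protein of the head with a bacterial counterpart, was next (chr9:138391830-138396519). It had 429, 392, 493 and 427 normalized reads in the low-glucose MDA-MB-468 samples. In high glucose it had 792, 849.9, 824 and 835, every sample being above every low-glucose sample. The log2 fold change was 0.93 (limma adjusted p = 4.37e-09, SE 0.061). In MDA-MB-231 the means of 1018 ± 40 and 1008 ± 45.4 (SD, n = 4) overlapped, with a log2 change of -0.01 (95% interval -0.11 to 0.08).

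The central protuberance, a part of the large subunit that faces the small one, held the next 2 genes. *MRPL58* (chr17:73008765-73017356) encodes a subunit that is also a peptidyl-tRNA hydrolase able to free stalled ribosomes. In MDA-MB-468 it measured 308, 328, 293 and 322 normalized reads in low glucose and 507, 539, 602 and 595 in high glucose. These groups stood apart, and the gene rose by 0.84 on the log2 scale (limma adjusted p = 2.62e-08, SE 0.065). *MRPL40* (chr22:19420068-19423598), which lies in the chromosome 22 region lost in DiGeorge syndrome, measured 286, 304, 276 and 263 in low glucose and 436, 461, 493 and 469.5 in high glucose. Again no high-glucose sample reached down to the low-glucose samples, with a log2 change of 0.72 (limma adjusted p = 1.03e-07, SE 0.063). Of the 7 genes assigned to this part of the ribosome, 5 rose, 0 fell and 2 did not pass, with a median of 0.35. The share that rose was 71.4%, against 24.9% of all genes tested and 33.8% of those in the ranges of length and level given above. It was 66% over the whole large subunit and 60.5% over the 76 genes. The others that rose in the central protuberance were *MRPL48* (0.59), *MRPL46* (0.35) and *MRPL38* (0.34), log2 fold changes in parentheses, and *MRPL27* (0.21) and *MRPL18* (0.11) did not pass.

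*MRPL39* and *MRPL9* completed the 6 largest rises. *MRPL39* (chr21:26957968-26979829), a large subunit protein gained in mitochondria, went from 412, 449, 435 and 428 normalized reads to 716, 697, 729 and 644 in MDA-MB-468, a log2 change of 0.69 (limma adjusted p = 2.23e-08, SE 0.053). *MRPL9* (chr1:151732123-151735972), with a bacterial counterpart, went from 769, 754, 757 and 673 to 1099, 1085, 1180.0 and 1183, a log2 change of 0.62 (limma adjusted p = 3.95e-08, SE 0.05). The low-glucose and high-glucose samples of both genes were fully separated. *MRPL9* overlaps *OAZ3* on the other strand, and *MRPS2* overlaps *PIERCE1* and *MRPL40* overlaps *HIRA* in the same way. Whether the counting used strand is not given in the sources used here, so the values of these 3 genes are uncertain to that extent.

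**Figure D2:**
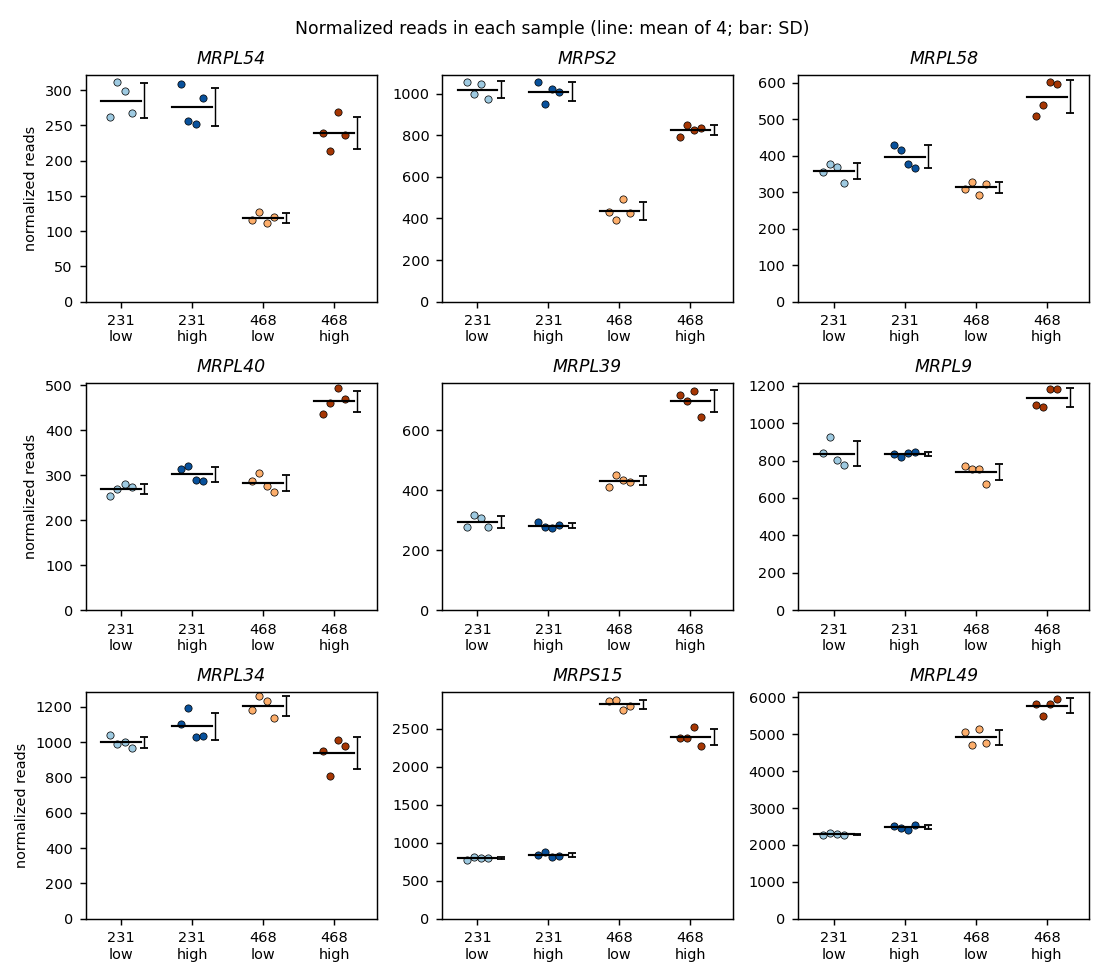
Normalized reads (vertical axis, from 0) of 9 genes in each of the 16 samples by line and glucose, with the mean of 4 samples as a line and the SD as a bar. In MDA-MB-468 the high-glucose samples of *MRPL54*, *MRPS2*, *MRPL58*, *MRPL40*, *MRPL39*, *MRPL9* and *MRPL49* lie above the low-glucose samples, and those of *MRPL34* and *MRPS15* lie below.

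To show what lies before the starts of the genes that moved most, promoter sequence is given for those of the 6 largest rises whose window touches no other protein-coding gene, with that of *MRPS15*, a gene that fell, beside them. Windows of 120 bases were read 5′ to 3′ from RefSeq on GRCh38.p14. They lie at chr19:3762562-3762681, plus strand for *MRPL54*, chr9:135500562-135500681, plus strand for *MRPS2* and chr17:75012550-75012669, plus strand for *MRPL58*. Those of *MRPL40* (chr22:19432425-19432544, plus strand), *MRPL39* (chr21:25607482-25607601, minus strand) and *MRPS15* (chr1:36464385-36464504, minus strand) follow. Capitals mark matches to the ETS core CCGGAAG on either strand.
MRPL54: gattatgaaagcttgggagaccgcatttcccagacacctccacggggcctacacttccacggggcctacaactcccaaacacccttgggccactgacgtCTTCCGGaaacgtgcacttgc
MRPS2: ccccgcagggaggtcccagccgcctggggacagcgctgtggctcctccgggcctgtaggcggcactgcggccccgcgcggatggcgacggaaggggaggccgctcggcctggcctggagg
MRPL58: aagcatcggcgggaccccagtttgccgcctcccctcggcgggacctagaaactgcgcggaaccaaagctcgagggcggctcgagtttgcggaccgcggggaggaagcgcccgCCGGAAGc
MRPL40: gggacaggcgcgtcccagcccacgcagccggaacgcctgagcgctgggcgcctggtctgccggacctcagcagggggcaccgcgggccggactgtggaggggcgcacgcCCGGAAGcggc
MRPL39: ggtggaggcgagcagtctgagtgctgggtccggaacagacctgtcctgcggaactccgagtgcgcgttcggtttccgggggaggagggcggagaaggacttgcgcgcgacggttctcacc
MRPS15: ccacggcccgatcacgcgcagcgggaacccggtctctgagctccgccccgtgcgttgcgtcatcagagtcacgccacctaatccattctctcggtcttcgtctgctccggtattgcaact
*MRPL54*, *MRPL58* and *MRPL40* hold a match close to the start, and *MRPS2*, *MRPL39* and *MRPS15* hold none in the bases shown. The table of promoters held 67 of the 76 genes. In the 250 bases before the start, searched on both strands, the ETS core was in 22 of them (32.8%), against 11.8% of 15843 protein-coding promoters. It was in 36.6% of the 41 that rose in MDA-MB-468 and 26.9% of the other 26. The YY1 motif AAGATGGC was in 7.46% against 1.39%, and the short NRF1 motif TGCGCA in 17.9% against 9.1%. The E-box CACGTG was in 7.46% against 7.84%. The other motifs were less frequent in the 41 that rose than in the other 26. The shares were 2.44% and 15.4% for YY1, 14.6% and 23.1% for the short NRF1 motif and 7.32% and 7.69% for the E-box. A longer NRF1 motif, searched in the same way, was in 1.49% of the 67 genes against 1.48% of all promoters. It was in 0% of the 41 and 3.85% of the other 26. The differences between these shares were not tested. A match is a match of letters only, and no binding was measured here.

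Across the large subunit in MDA-MB-468, 33 of 50 genes rose and 3 fell, with a median log2 fold change of 0.22. The share that rose was 66%, against 24.9% of all genes tested. The stalk, which recruits translation factors, had 3 genes. *MRPL12*, the stalk protein that is also known to bind the mitochondrial RNA polymerase, had 1232, 1142, 1199 and 1138 normalized reads in low glucose and 1499, 1355, 1459 and 1533 in high glucose, with a log2 change of 0.31 (limma adjusted p = 2.30e-05, SE 0.044). Its groups did not overlap. *MRPL11* rose by 0.21, and *MRPL10* (0.08) did not pass. Around the exit of the peptide tunnel, 2 of 6 assigned genes rose, *MRPL23* (0.41) and *MRPL24* (0.19). This share, 33.3%, was near the 33.8% of genes in the ranges of length and level given above. The call of *MRPL24* was lost under 7 of 19 other settings. Among them were DESeq2, length correction and leaving out low-glucose replicate 2 or high-glucose replicate 3. At the exit *MRPL47* fell, and *MRPL17* (0.12), *MRPL32* (0.05) and *MRPL22* (-0.08) did not pass. *MRPL57*, which has 5 pseudogenes of its name in the annotation, rose by 0.38 on the log2 scale, from 292 ± 12.7 to 380.1 ± 18.9 (SD, n = 4, limma adjusted p = 8.78e-05). Of the pair with small subunit names, *MRPS18A* rose by 0.23 (limma adjusted p = 0.00115) and *MRPS30* measured 786 ± 30.8 in low glucose and 768 ± 18.7 in high glucose without passing (95% interval of the log2 fold change -0.13 to 0.06). *MRPL19*, *MRPL41*, *MRPL50*, *MRPL35*, *MRPL1* and *MRPL37* rose by 0.30 to 0.48. A further 13 rose by 0.11 to 0.29, and these were *MRPL20*, *MRPL15*, *MRPL53*, *MRPL36*, *MRPL21*, *MRPL16*, *MRPL49*, *MRPL43*, *MRPL55*, *MRPL51*, *MRPL14*, *MRPL2* and *MRPL28*. *MRPL14* (0.12, limma adjusted p = 0.0479) did not pass under 14 of 19 other settings. *MRPL52* (0.11), *MRPL3* (0.08), *MRPL44* (-0.01), *MRPL4* (-0.07), *MRPL13* (-0.08) and *MRPL33* (-0.10) did not pass, nor did *MRPL30*, described below.

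In the small subunit, 13 of 25 genes rose (52%, against 24.9% of all genes tested) and 1 fell, with a median of 0.14. By hand, 9 genes were assigned to the head, which moves with the tRNAs, and 7 of them rose (77.8%). They were *MRPS2* and *MRPS31* (0.37), *MRPS35* (0.27), *MRPS33* (0.24), *MRPS14* (0.22), *MRPS24* (0.19) and *MRPS9* (0.18). *MRPS24* did not pass with length correction, with or without the replicate block. *MRPS7* (0.09) and *MRPS10* (-0.06) were not called. Another 9 were assigned to the body and platform, where the mRNA is decoded. Of these, 2 rose (22.2%), *MRPS34* (0.26) and *MRPS16* (0.13), and *MRPS15* fell. The assignment does not cover every protein of these parts, so the counts of head and body were not compared. *MRPS12*, a protein of the decoding center, measured 964, 877, 932 and 922 in low glucose and 927, 900.1, 1042 and 1065 in high glucose. Its groups overlapped, and the log2 fold change of 0.09 did not pass (95% interval -0.03 to 0.20). *MRPS18B* (0.04) and *MRPS18C* (-0.12), paralogs of *MRPS18A*, did not pass either, nor did *MRPS17* (0.11), *MRPS11* (0.11) and *MRPS6* (0.06). Of the genes left unassigned, *MRPS26* (0.60), *MRPS23* (0.31), *MRPS5* (0.30) and *MRPS22* (0.18) rose and *MRPS28* (0.14), *MRPS25* (0.11) and *MRPS27* (0.06) did not pass.

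By origin, 23 of the 30 genes gained in mitochondria rose in MDA-MB-468 and 1 fell, with a median of 0.27. Of the 45 with a bacterial counterpart, 23 rose and 3 fell, with a median of 0.12. The shares that rose were 76.7% and 51.1%, against 24.9% of all genes tested. The difference between the groups by origin was not tested. Many of these genes have copies or neighbors that counting could confuse with them: 34 have pseudogenes of their name, and 13 overlap another coding gene on the same strand. Among the 21 genes with no pseudogene and no overlapping coding gene on either strand, 13 rose and 0 fell, with a median of 0.21.

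The 5 falls in MDA-MB-468 were all under 0.4 on the log2 scale. *MRPL34*, a small basic protein of the large subunit (chr19:17403418-17417652), had 1181, 1263, 1233 and 1134 normalized reads in low glucose and 949.8, 808, 1013 and 979 in high glucose. No high-glucose sample reached the low-glucose samples, and the gene fell by 0.36 on the log2 scale (limma adjusted p = 1.01e-04, SE 0.06). *MRPL34* overlaps *ABHD8* on the other strand. *MRPS15*, a platform protein (chr1:36921319-36929985), had 2869, 2874, 2743 and 2801 in low glucose against 2382, 2384, 2529 and 2275 in high glucose, and fell by 0.24 (limma adjusted p = 3.58e-05, SE 0.035), again without overlap. *MRPS36* fell by 0.22 (limma adjusted p = 0.0166), *MRPL47* by 0.17 (adjusted p = 0.048) and *MRPL42* by 0.16 (adjusted p = 0.0148). *MRPL47* did not pass under 9 of 19 other settings, *MRPL42* under 4 and *MRPS36* under 2. Single libraries were enough for this: 6 of the 8 for *MRPL47*, high-glucose replicate 3 for *MRPL42* and low-glucose replicate 2 for *MRPS36*.

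In MDA-MB-231 the same change of glucose gave 1 call among the 76 genes, where 15.1% of all 14884 genes tested were called, 5.71% higher and 9.37% lower. Within the ranges of length and level given above the shares were 17.1%, 8.39% and 8.67%. The gene was *MRPL49*, a large subunit protein gained in mitochondria (chr11:64889655-64894843). It had 2269, 2312, 2289 and 2267 normalized reads in low glucose and 2526, 2457, 2409 and 2541 in high glucose. It overlaps *SYVN1* on the other strand. All high-glucose samples lay higher, and the log2 fold change was 0.12 (limma adjusted p = 0.017, SE 0.032). *MRPL49* also rose in MDA-MB-468, from 4917 ± 209.9 to 5769 ± 201 (SD, n = 4), a log2 change of 0.23 (limma adjusted p = 4.41e-05, SE 0.035). It was the 1 gene of the 76 called in both lines, against 9.33% of the 13573 genes tested in both. Without replicate 1 or without replicate 4 of the high-glucose MDA-MB-231 group, and with the replicate number as a block, *MRPL49* did not pass in MDA-MB-231 and 0 of the 76 genes were called.

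For the other 75 genes no change passed in MDA-MB-231. The median log2 fold change was 0.04, against 0.00 over all genes tested, and 54 of 76 values were above 0. An unadjusted p under 0.05 was reached by 13 genes, 12 of them higher, the largest value being that of *MRPL46* (0.25, limma adjusted p = 0.0707). edgeR's quasi-likelihood test and DESeq2 on the recovered reads each called 1 gene. For 51 genes the 95% interval lay within 0.2 of 0 on the log2 scale, which for those genes leaves out rises of 0.5 or more. Rises of that size were those of the 8 largest in MDA-MB-468. Not all of those 8 genes are among the 51, *MRPL54* being outside.

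The difference of the response between lines, tested in all 16 samples as MDA-MB-468 minus MDA-MB-231, passed for 29 genes, 25 positive and 4 negative. Among all 17115 genes tested, 30.9% passed, 17.0% positive and 13.9% negative. Among the 4339 genes in the ranges of length and level given above, 42.0% passed, 25.7% positive and 16.3% negative. Of the 76 genes, 38.2% passed, 32.9% positive and 5.26% negative. The median difference was 0.14 over the 76 genes and 0.00 over all genes. The largest positive differences were those of *MRPL54* (1.05, limma adjusted p = 5.16e-06, SE 0.121), *MRPS2* (0.94, adjusted p = 1.83e-07, SE 0.08), *MRPL39* (0.75) and *MRPL58* (0.69). The negative ones were *MRPL34* (-0.49, limma adjusted p = 4.70e-04, SE 0.089), *MRPS15* (-0.32, adjusted p = 8.68e-05, SE 0.048), *MRPL13* (-0.19, adjusted p = 0.0493) and *MRPS10* (-0.14, adjusted p = 0.0316). Neither *MRPL13* nor *MRPS10* passed within a line. By origin, the difference passed for 14 of the 30 genes gained in mitochondria, all positive, and for 15 of the 45 with a bacterial counterpart, 11 positive and 4 negative. *MRPL13* no longer passed under 19 of 27 other settings, 13 of which left out 1 library, and *MRPS10* under 7, 5 of which did. *MRPL40*, at 254, 269, 282 and 273 in low glucose against 313, 321, 289 and 288 in high glucose in MDA-MB-231, had groups there that did not overlap, and its difference between lines was 0.55 (limma adjusted p = 6.79e-05, SE 0.082).

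The transcripts of each subunit were also summed per kilobase of transcript. The 25 small subunit genes came to 17254, 17026, 16985 and 16604 normalized reads per kilobase in low-glucose MDA-MB-468 and 18102, 17796, 18827 and 18561 in high glucose. All high-glucose sums were higher, and the mean was higher by 7.98% ± 3.21 (SD from both groups, n = 4). The 50 large subunit genes came to 32829, 32032, 32458 and 31316 in low glucose and 36496, 35056, 37459 and 37419 in high glucose, a change of 13.8% ± 4.19 and no overlap. In MDA-MB-231 the small subunit sum averaged 12363 ± 258 in low glucose and 12863 ± 203 in high glucose, with a change of 4.05% ± 2.72. The large subunit sum there changed by 2.5% ± 2.68, less than 1 SD. Abundant genes weigh most in such sums. Without the 4 most abundant of the 76 genes, among them *MRPS15*, the small subunit sum in MDA-MB-468 changed by 14.3% instead.

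**Figure D3:**
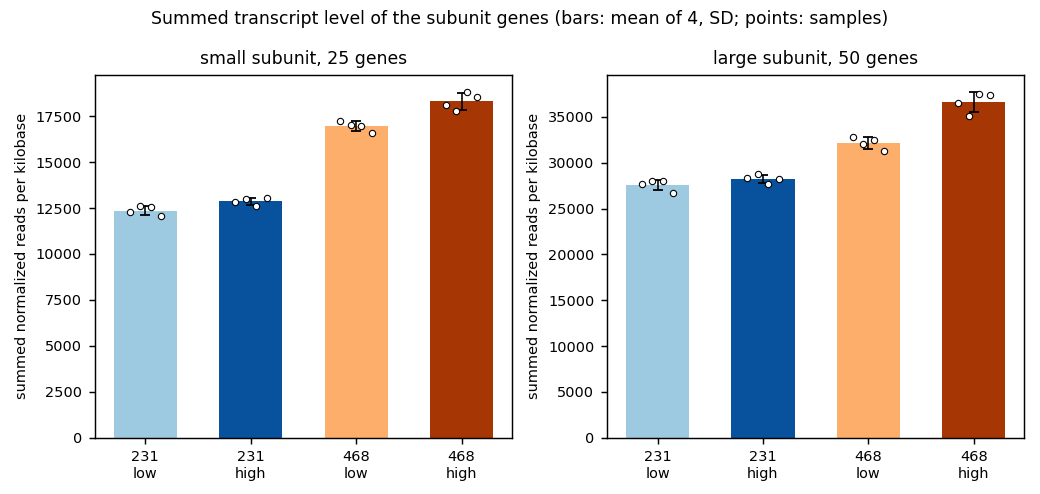
Summed normalized reads per kilobase of transcript (vertical axis, from 0) of the 25 small subunit genes (left) and the 50 large subunit genes (right), as the mean of 4 samples with SD and each sample as a point. In MDA-MB-468 the points of high glucose lie above those of low glucose in both panels, by 7.98% and 13.8% in the mean.

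The transcripts of these genes were not equally abundant. Per kilobase of transcript, the highest level of the 76 genes was 307 times the lowest in low-glucose MDA-MB-231 and 222 times in low-glucose MDA-MB-468, with *MRPL30* lowest in both. Without *MRPL30* the ratios were 23.3 and 58.3. In MDA-MB-231 the 4 highest were *MRPL34* (1308 normalized reads per kilobase), *MRPS24* (1252), *MRPS10* (1196) and *MRPL14* (1169.7). In MDA-MB-468 they were *MRPL4* (3141), *MRPS15* (2961), *MRPL49* (2427) and *MRPS6* (1919), the last of which overlaps the inositol transporter gene *SLC5A3* on the same strand. The median level was 474 and 438 normalized reads per kilobase in the 2 lines. *MRPL42*, *MRPL19*, *MRPS33* and *MRPS23* were among the lowest per kilobase, with canonical transcripts of 15557, 7825, 4210 and 5609 bases where the median of the 76 is 1242. Division by such long transcripts lowers the level of a gene whose cells use a shorter form. *MRPL30* had 0, 47, 8.94 and 19.5 normalized reads in low-glucose MDA-MB-231 and 21.4, 40.9, 129 and 60.2 in low-glucose MDA-MB-468, and no other of these genes varied as much between replicates. It overlaps readthrough genes on the same strand, so its values are uncertain.

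Between the lines in low glucose, 64 of the 76 genes differed, 39 higher and 25 lower in MDA-MB-468. Among all genes tested 85.4% differed, 45.0% higher and 40.4% lower, against 84.2% of the 76. The median log2 difference was 0.16 over the 76 genes and 0.08 over all genes. After correction for transcript length, 7005 of all 16335 genes tested were higher and 7086 lower. Of the 76 genes, 30 were then higher and 32 lower, with a median of -0.04. *MRPS17*, a small subunit protein with a bacterial counterpart, differed most among those that passed. It had 293, 342, 311 and 328 normalized reads in MDA-MB-231 and 1348, 1339, 1214 and 1268 in MDA-MB-468, a log2 difference of 2.02 (limma adjusted p = 5.10e-15, SE 0.065). The gene overlaps *NIPSNAP2* on the same strand and has 4 pseudogenes. *MRPS15* had 774, 812, 798 and 798 in MDA-MB-231, and against its level in MDA-MB-468 the log2 difference was 1.83 (limma adjusted p = 2.83e-18, SE 0.034). *MRPL22*, at the tunnel exit, was higher in MDA-MB-468 by 1.74 on the log2 scale and *MRPL4*, which lies nearby in the bacterial ribosome, by 1.65. In the other direction, *MRPL54* was lower in MDA-MB-468, with a log2 difference of -1.26 (limma adjusted p = 2.39e-10, SE 0.086), and *MRPS2* had a difference of -1.23 (adjusted p = 7.97e-13, SE 0.056). In high glucose the mean of *MRPL54* was 239 in MDA-MB-468 and 276 in MDA-MB-231, and that of *MRPS2* was 825 and 1008. *MRPS10* (-1.19) and *MRPL24* (-1.11) were lower in MDA-MB-468 as well. *MRPS10* had 2442, 2490.4, 2524 and 2589.8 normalized reads in MDA-MB-231 and 1057, 1181, 1063 and 1096 in MDA-MB-468, with no overlap.

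**Figure D4:**
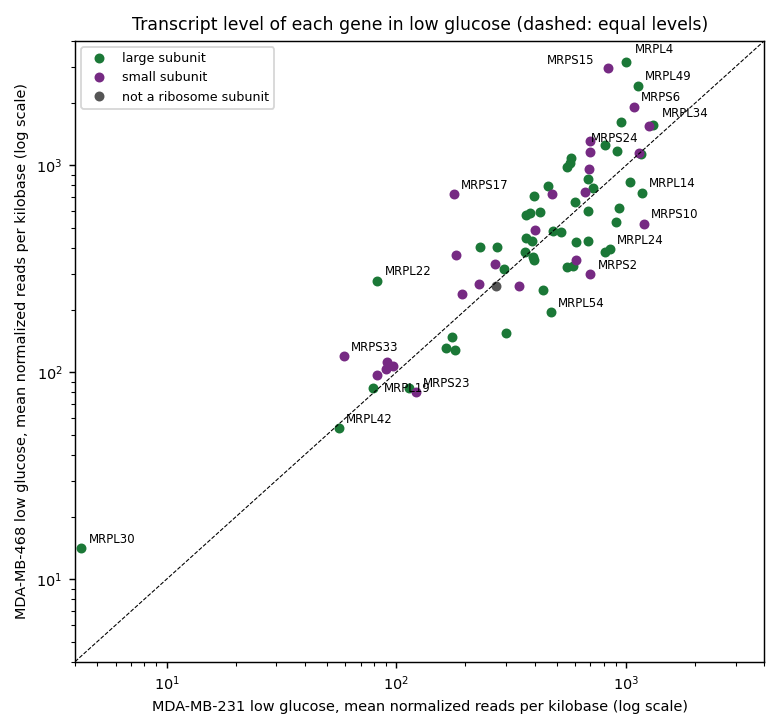
Mean normalized reads per kilobase of transcript of each of the 76 genes in low glucose, MDA-MB-231 (horizontal, log scale) against MDA-MB-468 (vertical, log scale), n = 4 each, with the dashed line at equal levels and color for the subunit. *MRPS17*, *MRPL22*, *MRPS15* and *MRPL4* lie above the line, *MRPL54*, *MRPS2*, *MRPS10* and *MRPL24* below it, and *MRPL30* far below all others in level.

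Other parts of the mitochondrial translation apparatus were looked at from lists written by hand, to be read against the 47.6% of all genes called in MDA-MB-468, 24.9% higher and 22.7% lower, and the 15.1% called in MDA-MB-231. Of 5 subunits of the ribosome without an MRP symbol, 2 rose and 1 fell in MDA-MB-468. *GADD45GIP1*, of the large subunit, measured 606, 554, 555 and 569 normalized reads in low glucose and 786, 792, 853 and 897 in high glucose, with a log2 change of 0.54 (limma adjusted p = 3.30e-07, SE 0.052). *CHCHD1* rose by 0.15 (limma adjusted p = 0.0479), a call lost under 13 of 19 other settings, and *DAP3*, a GTP-binding protein of the small subunit, fell by 0.09 (adjusted p = 0.0197). *DAP3* did not pass without low-glucose replicate 3 or high-glucose replicate 2. *AURKAIP1* (0.01) and *PTCD3* (-0.09) did not pass. In MDA-MB-231 none of the 5 passed, with log2 fold changes of -0.04 to 0.0044.

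Assembly factors build the ribosome and modify its rRNA, and 24 of the 26 listed were found. In MDA-MB-468, 10 rose and 2 fell, with a median of 0.09, so that 50% were called against 47.6% of all genes. *ERAL1*, a GTPase that chaperones the small rRNA, rose from 352, 342, 374 and 294 to 642, 566, 629 and 644 normalized reads, a log2 change of 0.87 (limma adjusted p = 4.64e-08, SE 0.071). *GTPBP10*, a GTPase of large subunit assembly, went from 327, 363, 339.6 and 345 to 262, 241, 233 and 219 and fell by 0.52 (adjusted p = 1.09e-05, SE 0.069). Neither gene's groups overlapped. In MDA-MB-231 1 gene rose, *NGRN*, which acts on the large rRNA, by 0.15 (limma adjusted p = 0.0167), but not with length correction, with or without the replicate block, nor without low-glucose replicate 1 or high-glucose replicate 2.

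Of 15 translation factors, 4 rose and 3 fell in MDA-MB-468 and 0 passed in MDA-MB-231. The share called in MDA-MB-468, 46.7%, was that of all genes tested (47.6%) to within 1 gene. *TSFM*, the exchange factor of the elongation factor *TUFM*, rose by 0.85 (limma adjusted p = 2.05e-07, SE 0.079), from 208 ± 21.3 to 375 ± 22.2 (SD, n = 4). *TUFM* itself measured 2869.7 ± 104 and 3020.4 ± 135 and did not pass, and the release factor *MTRF1* fell by 0.64 (adjusted p = 2.84e-05, SE 0.093). Of 17 mitochondrial aminoacyl-tRNA synthetases, which charge tRNAs, 7 rose and 3 fell in MDA-MB-468 (58.8% called), and 0 passed in MDA-MB-231. *AARS2* had the largest rise, 1.13 (limma adjusted p = 4.10e-09, SE 0.074), and *EARS2* the largest fall, -0.24 (adjusted p = 8.42e-04). Of 5 genes of mitochondrial transcription, 0 rose and 2 fell in MDA-MB-468, among them *MTERF1* (-0.34, adjusted p = 0.0166, not past the threshold without low-glucose replicate 2), and 0 passed in MDA-MB-231.

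The mRNAs that this ribosome translates had lower medians in high glucose in both lines. All 13 mitochondrially encoded mRNAs fell in MDA-MB-468, against 22.7% of all genes tested. Their median log2 fold change was -0.24, with a range from -0.38 to -0.15. In MDA-MB-231, 8 of 13 fell (61.5%, against 9.37% of all genes tested), with a median of -0.15. *MT-ND4L*, a complex I subunit, fell most in MDA-MB-468, from 4671, 5082, 4396 and 5386 to 3498, 4122, 3447 and 3994 normalized reads (-0.38, limma adjusted p = 9.70e-05, SE 0.062). *MT-CYB*, of complex III, fell most in MDA-MB-231, from 20519, 19249.7, 18205 and 20222 to 16315, 15935, 16725 and 16859.6 (-0.25, adjusted p = 8.53e-05, SE 0.035). The difference between lines passed for 1 of the 13 (7.69%), against 30.9% of all genes tested.

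The rRNA of the large subunit, *MT-RNR2*, had 75549, 85075, 74716 and 83004 normalized reads in low-glucose MDA-MB-468. In high glucose it had 48315, 48158, 42108 and 45652, without overlap and with a log2 change of -0.79 (limma adjusted p = 1.10e-09, SE 0.046). In MDA-MB-231 it measured 61976 ± 2606 and 63526 ± 2586 (SD, n = 4) and did not pass, and the difference between lines was -0.82 (limma adjusted p = 2.05e-07, SE 0.07). The rRNA of the small subunit, *MT-RNR1*, had 10737, 9208, 4934 and 5033 in high-glucose MDA-MB-468, where 2 samples were at the level of low glucose (10511, 12080.5, 10647 and 10435) or just below it and 2 far lower. Its fall of 0.63 (limma adjusted p = 0.00866, SE 0.181) was not called by DESeq2. In MDA-MB-231 it fell by 0.19 (limma adjusted p = 0.0041). The study's methods name a stranded mRNA kit (TruSeq) in the account of its tumors, under a heading that also covers cultured cells, while the labels of these libraries name only standard Illumina protocols. The part of mRNA selection in the rRNA values was not tested.

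**Figure D5:**
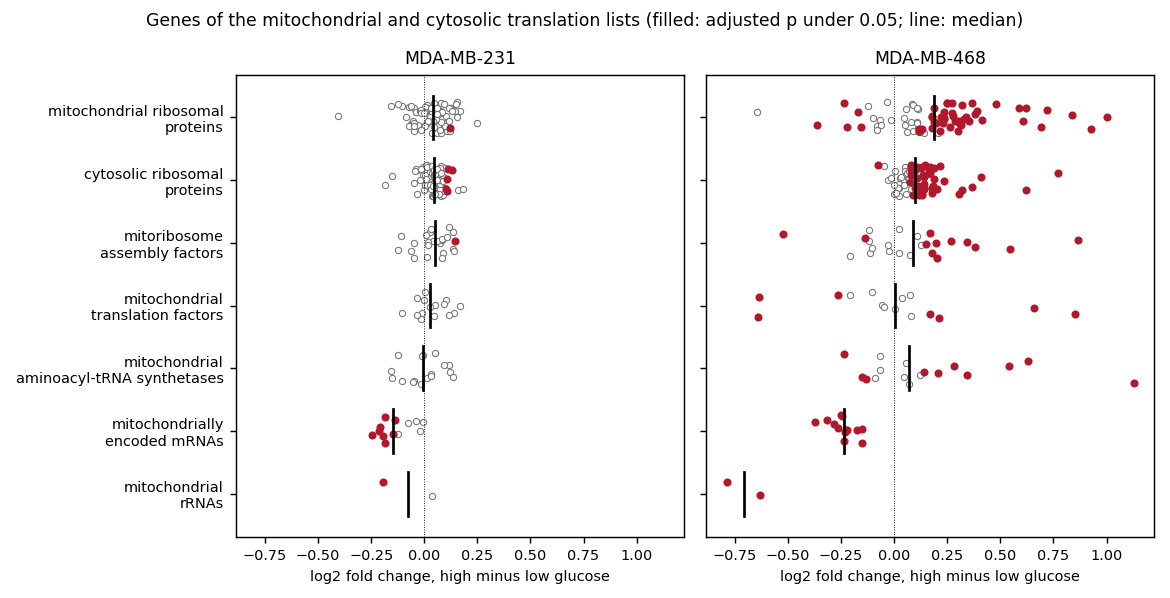
Log2 fold change in high against low glucose (horizontal axis) of each gene of 7 lists in MDA-MB-231 (left) and MDA-MB-468 (right), with filled points for an adjusted p under 0.05 and a line at each list's median. In MDA-MB-468 the medians are 0.19 for mitochondrial and 0.10 for cytosolic ribosomal proteins, and all 13 mitochondrially encoded mRNAs lie below 0.

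Cytosolic ribosomal proteins, listed for comparison, rose in 49 of 83 cases in MDA-MB-468 and fell in 1, with a median of 0.10. The share that rose was 59%, against 24.9% of all genes tested. In MDA-MB-231 5 rose and 0 fell, with a median of 0.05, and the share that rose was 6.02%, near the 5.71% of all genes tested. The difference between lines passed for 14 of the 83, or 16.9%, against 30.9% of all genes tested. Of the transcription factors linked to mitochondrial biogenesis, 8 of 9 could be tested in MDA-MB-468. *GABPB1*, a partner of the ETS factor GABPA, rose by 0.37 (limma adjusted p = 2.64e-04, SE 0.067) from 253, 262, 242 and 258 to 339, 297, 328 and 346 normalized reads. *YY1* rose by 0.12 (adjusted p = 0.00466) and *ESRRA* fell by 0.14 (adjusted p = 0.00534). *NRF1* (0.12) and *GABPA* itself (-0.0076) did not pass. In MDA-MB-231 the coactivator *PPARGC1A* rose from 187, 191, 186 and 245 to 302, 289, 258 and 271 normalized reads (0.48, limma adjusted p = 0.00147, SE 0.09) and *MYC* fell from 4146, 4144, 4101 and 4045 to 3487, 3421, 3604 and 3515 (-0.23, adjusted p = 3.46e-05, SE 0.029). *PPARGC1A* was at or under the floor of 3 reads in every MDA-MB-468 library.

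The noncoding neighbors were *MRPL20-AS1*, *MRPS30-DT* and *MRPS35-DT*. *MRPL20-AS1*, transcribed opposite *MRPL20*, rose by 0.52 in MDA-MB-468 (limma adjusted p = 2.37e-04, SE 0.094), from 181 ± 20.6 to 261 ± 25.1 normalized reads (SD, n = 4). Since the use of strand in the counting is not given, its reads and those of *MRPL20* may be mixed. *MRPS30-DT* went from 15.2 ± 1.13 to 4.13 ± 1.79 and fell by 1.74 (adjusted p = 0.00127), while *MRPS30* beside it did not pass. *MRPS35-DT* was too low to be tested.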

How the data were processed

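RNA was sequenced from 2 cell lines in 5 or 25 mM glucose for 48 hours, with 4 samples per group and 16 in all. Per the study's methods, given for its tumors under a heading that covers cultured cells, the authors aligned trimmed reads with TopHat to the Ensembl annotation. The counting program and its use of strand are not given in the sources used here. The study's methods name hg19 and the submitters' processing notes hg38. The deposited values are a normalized signal, reads divided by a library size factor, from which whole reads were recovered in 100% of values within 0.001 of a whole number. Coordinates are from GENCODE on GRCh37, promoters from RefSeq on GRCh38.p14. The intervals come from the spread between samples. A gene at 0 reads in a library allows an expected count of up to 3.

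Genes at 0.5 CPM or more in at least 2 samples were tested with limma 3.58.1 (R 4.3.3, eBayes with trend, two-sided) on log2(value + 1), with Benjamini-Hochberg adjustment over all genes tested and a threshold of 0.05. A fold change on this scale understates that of low genes. Each line was fitted on its 8 samples, and the comparisons between lines on all 16. Gene lengths are those of the canonical transcript. Alternatives were edgeR 4.0.16 and DESeq2 1.42.0 on recovered reads, pseudocount 8, other filters, TMM, quantile, length and GC corrections, a replicate block, and leaving out each sample in turn. The fit was tested on simulated data.

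The members, lists and tests were chosen with earlier results of these data known. Named by rule were the 6 largest rises and falls in each line among genes past the threshold, the 4 largest differences each way between lines, the 4 highest and lowest genes per kilobase, genes called in both lines, a fixed set (*MRPL12*, *MRPS12*, *MRPL57*, *MRPL58*, *MRPS18A*, *MRPS18B*, *MRPS18C*, *MRPS30*, *MRPS36*), 6 related genes, and the largest rise and fall of each list. Other genes were named after their values were seen.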

Additional observations from a re-analysis of the deposited data

Results flagged for a closer look

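In 13 of 224 groups of 4 samples, 1 sample stood apart from the other three, by a gap that passed Dixon's 95% critical value, where chance gives about 1 group in 20. In the low-glucose MDA-MB-468 group, 5 of these were replicate 4: *MRPL9* at 673 normalized reads (the others 754 to 769), *MRPL42* at 779 (852 to 861), *MRPS33* at 484 (509 to 513), *AURKAIP1* at 864 (908 to 917) and, on the high side, *MRPS18C* at 551 (502 to 507). In MDA-MB-468, *MRPL42* and *MRPL9* were called without this sample as well.

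The others were spread over the libraries. *MRPL30* was at 71.3 in replicate 4 of high-glucose MDA-MB-231 (the others 0 to 7.43). *MT-RNR1* was at 12080.5 in replicate 2 of low-glucose MDA-MB-468 (10435 to 10647), and *MYC* at 1753 in replicate 1 of high-glucose MDA-MB-468 (1695 to 1703). In MDA-MB-231, *ERAL1* was at 1001 in replicate 2 of high glucose (1135 to 1154), and *NGRN* at 1842 in the same sample (1688 to 1709.6). *TUFM* was at 2509 in replicate 4 of high glucose (2391 to 2402). *PPARGC1A* was at 245 in replicate 4 of low glucose (186 to 191) and *MTRF1* at 58.6 in replicate 1 (66.8 to 68.5).

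The response to glucose differed between lines for 29 genes of the mitochondrial ribosome by limma's interaction term, or 38.2% of the 76. This share was 30.9% over all genes tested and 42.0% within the ranges of length and level given above. Among the 76 genes, the 4 largest positive differences, as MDA-MB-468 minus MDA-MB-231 on the log2 scale, were 1.05 for *MRPL54*, 0.94 for *MRPS2*, 0.75 for *MRPL39* and 0.69 for *MRPL58*. The 4 negative ones were -0.49 for *MRPL34*, -0.32 for *MRPS15*, -0.19 for *MRPL13* and -0.14 for *MRPS10*.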

How the results depend on the processing

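In MDA-MB-468 the count of called genes of both directions together stayed within 1.5 times the reported one under all 19 alternatives, as did those of the difference between lines and of the lines in low glucose under all 27. The smaller counts moved more. The 5 falls in MDA-MB-468 became 8 with quantile rescaling, 10 with length correction, with or without the block, and 3 with GC correction or without low-glucose replicate 2 or high-glucose replicate 3. The 4 negative differences became 2 in 7 of 27 alternatives: the block, with or without length correction, and leaving out low-glucose replicate 1 or 2 or high-glucose replicate 2 of MDA-MB-231, or high-glucose replicate 1 or 4 of MDA-MB-468. The 1 call in MDA-MB-231 became 2 with quantile rescaling or length correction and 5 with GC correction, and leaving out 1 sample gave 0 to 3: 0 without high-glucose replicate 1 or 4, 2 without low-glucose replicate 2 or 4 or high-glucose replicate 3, and 3 without low-glucose replicate 3. Over all genes tested, calls in MDA-MB-231 were 2245 as reported, 2141 with quantile rescaling, 2201 with length correction and 3062 with GC correction. The median log2 fold change of the 76 genes in MDA-MB-231 was 0.0105 with length correction. In MDA-MB-468 it was 0.102 with length correction and 0.154 with GC correction. The median difference between lines was 0.121 to 0.165 with 1 sample left out. For the lines in low glucose it was 0.134 with TMM, 0.203 with quantile rescaling, 0.134 with edgeR, 0.0606 with GC correction and -0.0362 with length correction, where *MRPL34* (-0.0631), *MRPS18A* (-0.0765) and *MRPS24* (-0.0535) reversed too. The cause was not tested. The small subunit sum in MDA-MB-468 changed by 14.3% without the 4 most abundant genes. The sums per coding length, and with 1 sample left out, were chosen after seeing the data and moved by less than 1 SD. Of 2738 alternatives for named genes, 2598 kept direction and call, 134 lost the call and 6 reversed.

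Same-numbered samples did not deviate together: the correlation of their deviations was over 0.1 for 0 pairs in either line, and 0 of 4 samples in MDA-MB-231 and 3 of 4 in MDA-MB-468 correlated best with their own number. The numbers were thus not read as pairs. With the replicate block, MDA-MB-231 had 0 calls, MDA-MB-468 49 and the difference between lines 26. With the block and length correction together, MDA-MB-231 had 0 calls, and the medians were 0.0105 in MDA-MB-231, 0.102 in MDA-MB-468 and -0.0362 for the lines in low glucose, with *MRPL34* at -0.0631, *MRPS18A* at -0.0765 and *MRPS24* at -0.0535.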

Other observations

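The order of the 76 genes by level per kilobase was alike in both lines in low glucose, with a Spearman correlation of 0.81 across genes, which share libraries and transcript lengths and are not independent replicates.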
